A study of Homo sapiens with 4 samples.

Results

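EGFR, PDGFRA, MET and FGFR1 encode 4 receptor tyrosine kinases that recur as altered drivers in glioma, and their H3K9ac was read from the lists of called regions of T98G glioblastoma cells. The members were chosen by position: every region lying wholly or partly between 20 kb before and 50 kb after the hg19 start of each gene, by strand. That gave 17 of 39303 regions in cells with an shRNA against RBBP4 (shRBBP4) and 18 of 26828 in cells with the control NT shRNA (shNT). A region was assigned to the promoter zone when its centre lay within 5 kb of the start, to the upstream zone when it lay farther before it, and to the gene body zone when it lay farther after it.

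The series holds 4 samples, 1 H3K9ac library and 1 input library for each shRNA. T98G is an established human glioblastoma cell line, used here at passage 4. Both cell populations were transduced with lentivirus, carrying the RBBP4 shRNA in the one and the NT shRNA in the other. How many shRNA constructs were used is not given in the sources used here, and the inputs were not analysed here. The depth of the libraries is unknown, and with 1 H3K9ac library per shRNA no difference has a replicate check or a p-value. Intervals cover counting error only and treat regions as independent, which neighbouring regions are not.

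Receptor tyrosine kinases are cell-surface proteins that pair up when a growth factor binds, phosphorylate each other and switch on the RAS-MAPK and PI3K-AKT pathways. EGFR binds EGF and related ligands, PDGFRA binds platelet-derived growth factors, MET binds hepatocyte growth factor and FGFR1 binds fibroblast growth factors. H3K9ac, acetylation of lysine 9 of histone H3, marks nucleosomes beside active gene starts and at active enhancers. RBBP4 is a histone-binding subunit of several chromatin complexes, among them complexes with histone deacetylases, the enzymes that remove such acetyl groups. The question of the comparison is where the mark differs between cells with the RBBP4 shRNA and cells with the control shRNA.

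The promoter sequences are shown to describe the gene starts on which the windows are set. They come from RefSeq on GRCh38.p14, each covering 250 bases before to 50 bases after a start, and 3 of the 4 genes matched. The match of those starts to the hg19 starts used for the windows was not made here. Capitals mark GC boxes, the letters GGGCGG or their reverse complement CCGCCC, the form bound by SP1-type factors. A match is only a run of letters and does not show binding.
EGFR, chr7:55018767-55019066, plus strand: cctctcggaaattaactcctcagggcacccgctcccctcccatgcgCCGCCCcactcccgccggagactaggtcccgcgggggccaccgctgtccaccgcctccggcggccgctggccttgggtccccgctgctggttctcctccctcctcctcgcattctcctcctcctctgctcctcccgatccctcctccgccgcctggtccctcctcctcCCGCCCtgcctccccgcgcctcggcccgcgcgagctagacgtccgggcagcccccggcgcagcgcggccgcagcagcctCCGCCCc
MET, chr7:116671946-116672245, plus strand: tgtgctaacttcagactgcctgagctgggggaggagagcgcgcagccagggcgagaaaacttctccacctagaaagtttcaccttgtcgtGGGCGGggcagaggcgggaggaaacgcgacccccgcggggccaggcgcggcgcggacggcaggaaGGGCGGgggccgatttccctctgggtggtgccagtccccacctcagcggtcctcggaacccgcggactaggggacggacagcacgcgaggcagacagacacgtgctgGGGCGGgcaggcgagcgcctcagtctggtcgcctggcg
PDGFRA first start, chr4:54229043-54229342, plus strand: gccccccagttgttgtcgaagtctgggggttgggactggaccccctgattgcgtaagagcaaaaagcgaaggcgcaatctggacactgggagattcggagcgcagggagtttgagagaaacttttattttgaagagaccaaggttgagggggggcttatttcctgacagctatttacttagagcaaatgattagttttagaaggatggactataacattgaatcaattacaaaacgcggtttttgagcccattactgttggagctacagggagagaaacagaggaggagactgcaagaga
PDGFRA second start, chr4:54233710-54234009, plus strand: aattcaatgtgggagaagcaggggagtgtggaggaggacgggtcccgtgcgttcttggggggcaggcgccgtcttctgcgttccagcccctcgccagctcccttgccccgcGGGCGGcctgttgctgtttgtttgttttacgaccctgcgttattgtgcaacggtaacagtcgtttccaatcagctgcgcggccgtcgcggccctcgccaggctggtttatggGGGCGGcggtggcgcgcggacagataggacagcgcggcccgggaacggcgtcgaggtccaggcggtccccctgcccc

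The printed EGFR and MET promoters are CpG-rich and hold 3 GC boxes each. The printed EGFR sequence has 75.3% G and C with 33 CpG dinucleotides, and the MET sequence has 69.3% with 30. Over all 35116 promoter sequences of this length in the RefSeq table, the median was 58.7% G and C with 14 CpG, 45.0% held at least 1 GC box and 15.8% held 3 or more. PDGFRA differs between its starts. The first has 47.0% G and C, 8 CpG and no GC box, and the second, 4.67 kb farther along the gene in RefSeq, has 66.7%, 32 CpG and 2 GC boxes. None of the 4 printed sequences holds TATAAA on either strand, which 11.5% of all promoters do. RefSeq lists a second EGFR start 90.8 kb farther along the gene, outside the window and not printed. Its promoter sequence has 42.0% G and C, 1 CpG and no GC box, and it holds TATAAA.

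**Figure D1:**
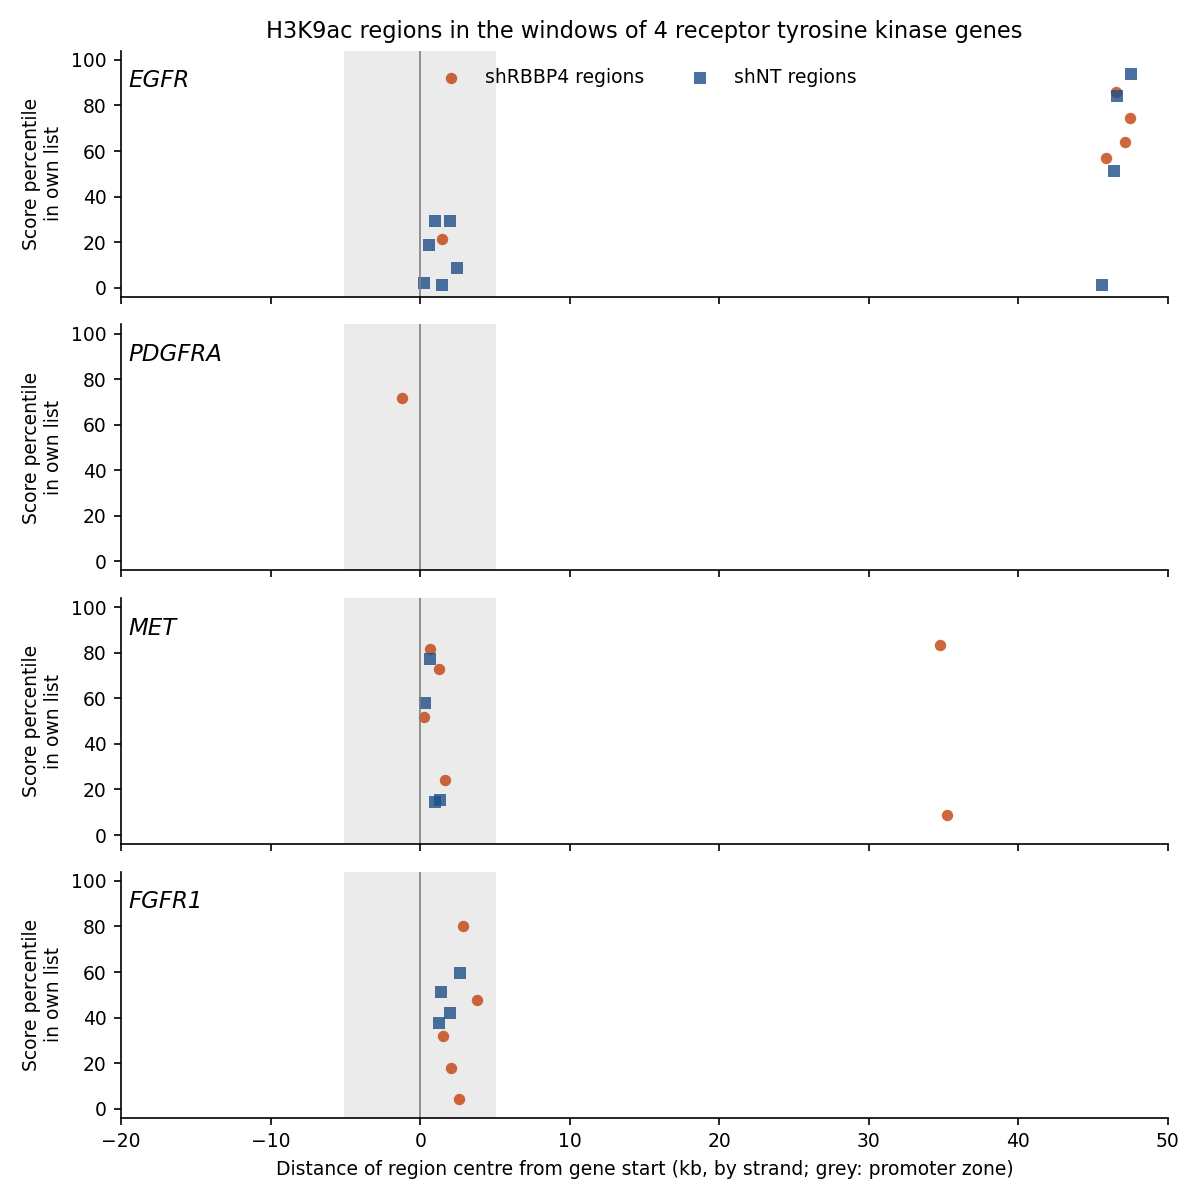
Score percentile within its own list (y axis, percent) against distance of the region's centre from the gene start (x axis, kb, by strand) for each H3K9ac region of shRBBP4 (circles) and shNT (squares), with the promoter zone in grey. Regions lie near the starts of EGFR, MET and FGFR1 in both libraries, in a group 45.4 to 47.9 kb into EGFR in both, and near 35 kb into MET in shRBBP4.

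H3K9ac regions were called in the promoter zones of EGFR, MET and FGFR1 in both libraries, while the PDGFRA window was nearly empty. Across the 4 windows the libraries had almost equal numbers, 17 regions in shRBBP4 and 18 in shNT. The ratio of shRBBP4 to shNT regions was 0.944 (95% interval 0.457 to 1.94). The ratio of the whole lists was 1.46 (1.44 to 1.49), which lies inside that interval. The side of 1 on which the windows lay depended on the weak regions, with 10 regions in shRBBP4 and 7 in shNT in the higher-scoring 50% of each list. EGFR and MET lie on chromosome 7, where the ratio was 1.10, FGFR1 on chromosome 8, where it was 1.15, and PDGFRA on chromosome 4, where it was 1.67. The regions covered 4335 bp in shRBBP4 and 4836 bp in shNT. The ratio of covered length was 0.896, against 1.51 for the whole lists. By chromosome it was 1.01 on chromosome 7, 1.07 on chromosome 8 and 1.85 on chromosome 4. PDGFRA, the only gene on chromosome 4, had 135 covered bp in shRBBP4 and 0 in shNT. Of the bases covered in the windows, 2322 were covered in both libraries, 2013 in shRBBP4 alone and 2514 in shNT alone.

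Over the whole lists, 19669 of 39303 shRBBP4 regions overlapped an shNT region by at least 1 bp. In the other direction, 20656 of 26828 shNT regions overlapped an shRBBP4 region, a larger share. In shRBBP4, 12 of the 17 regions overlapped an shNT region by at least 1 bp (70.6%, exact Clopper-Pearson 95% interval 44.0 to 89.7), against 56.3% of the shRBBP4 regions on chromosomes 4, 7 and 8 and 63.4% of those on chromosome 7. In shNT, 11 of the 18 overlapped an shRBBP4 region (61.1%, 35.7 to 82.7), against 68.2% of the shNT regions on chromosomes 4, 7 and 8 and 68.0% of those on chromosome 7. These background shares lie inside the intervals. In lists of equal length the shNT share was 8 of 18 (44.4%). The share over all regions of such lists was not computed. The value cannot be set against the full-list shares, since a shortened shRBBP4 list leaves fewer regions to overlap. No counterpart lay within 1 kb of 3 of the 17 shRBBP4 regions, against 25.7% of the whole list, and of 1 of the 18 shNT regions, against 6.24%. The regions were narrow, the median width being 221 bp for shRBBP4 and 183 bp for shNT. The score percentile used throughout is the rank of a region's score within its own list, from 0 for the weakest to 100 for the strongest. In shRBBP4, 10 of the 17 regions stood above percentile 50, and in shNT 7 of the 18 did.

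The mark lay downstream of the start at the genes with regions in both libraries. No region of either library was called in the upstream zone of any of the 4 genes. At EGFR, MET and FGFR1 every promoter region of either library lay after the start, and the first one began 53 bp after it at MET in shRBBP4. The only region before a start was the shRBBP4 region of PDGFRA. The start positions are those of the rule, and start sites in use in T98G were not measured here.

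**Figure D2:**
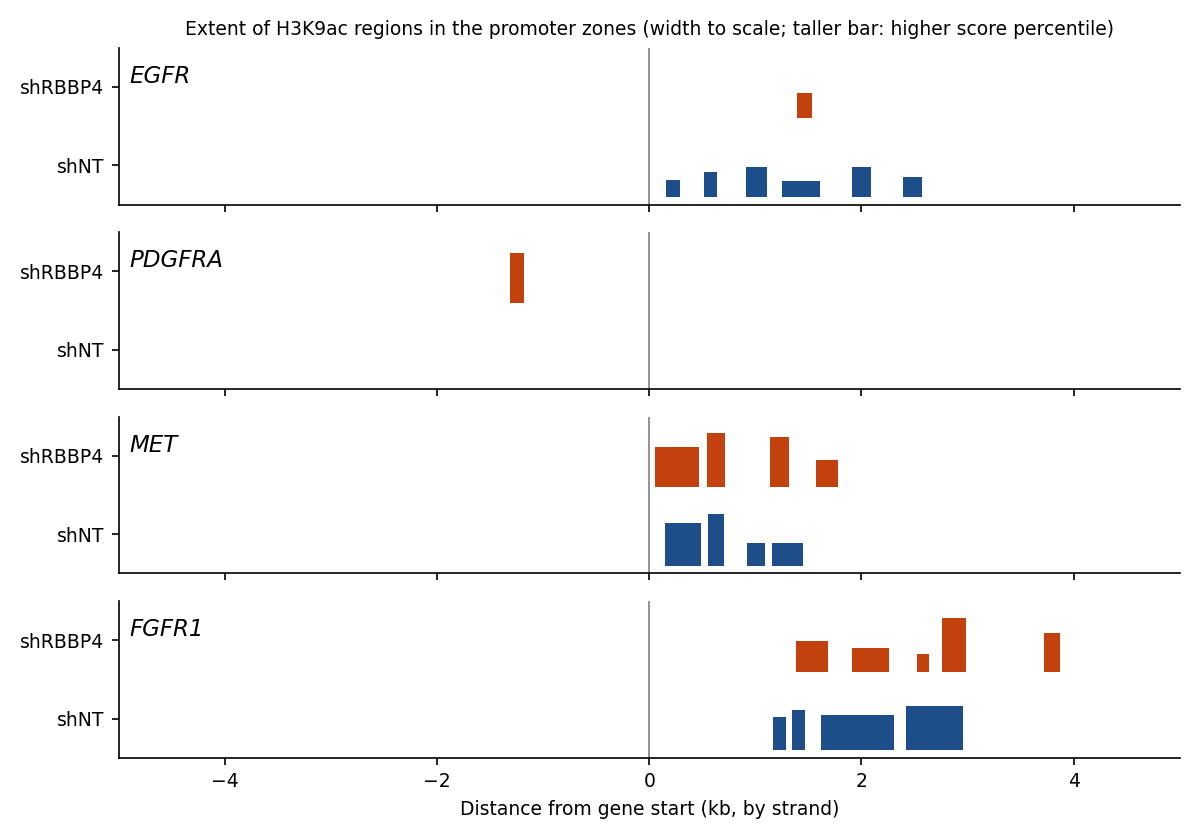
Extent of each H3K9ac region in the promoter zones (x axis, distance from the gene start in kb, by strand), with shRBBP4 above shNT and bar height rising with the score percentile in the own list. EGFR has 1 region in shRBBP4 and 6 in shNT, and the regions of MET and FGFR1 lie at similar places in both libraries.

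EGFR, the receptor most often amplified in primary glioblastoma, had the largest difference in covered promoter length among the 4 genes, in bp. Its promoter zone held 1 region in shRBBP4 and 6 in shNT, covering 137 bp in shRBBP4 and 1174 bp in shNT. The shRBBP4 region ran on chromosome 7 from 55088122 to 55088258, between 1397 and 1533 bp after the start. The shNT regions formed 1 cluster of 2412 bp from 55086883 to 55089294, between 158 and 2569 bp after the start. The shRBBP4 region lay entirely within the widest of them, a region of 357 bp from 55087974 to 55088330. The count ratio was 0.167, with a counting interval of 0.00362 to 1.37 that holds the ratio of chromosome 7 but not that of the whole lists.

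All 7 EGFR promoter regions were weak within their lists. The shRBBP4 region stood at percentile 21.2. The shNT regions stood, in order from the start, at percentiles 2.12, 18.7, 29.4, 1.18, 29.4 and 8.53. The strongest in shNT were tied in score, and lay from 55087641 to 55087833 and from 55088633 to 55088819. None of the 7 would be kept in the higher-scoring 50% of its list, so the contrast rests on low-ranking regions.

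Weak shNT regions usually had a counterpart. Of the 6 shNT regions at the EGFR promoter, 1 overlapped an shRBBP4 region and 5 had one within 1 kb. Among all shNT regions at or under percentile 30, 60.4% overlapped an shRBBP4 region and 88.3% had one within 1 kb. The exception at the 1 kb limit was the region nearest the start, from 55086883 to 55087014, which lay 1107 bp from the shRBBP4 region.

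Clusters of as many shNT regions as at the EGFR promoter seldom held so few shRBBP4 regions, but few of those clusters were made of weak regions alone. Regions of shNT joined across gaps of up to 1 kb gave 212 clusters of exactly 6 regions in the genome, and their spans held a median of 4 shRBBP4 regions. The EGFR promoter was the 1 cluster of these 212 with at most 1 (0.472%), and none had 0. Of the 417 clusters of 6 or more, 3 had at most 1 (0.719%). On chromosome 7 there were 16 clusters of exactly 6 regions, with a median of 5 shRBBP4 regions. EGFR was again the 1 of them with at most 1 (6.25%). Only 4 of the 212 were, like that of EGFR, made of regions in the lower-scoring 50% alone. These 4 had a median of 3 shRBBP4 regions, and EGFR was the 1 of 4 with at most 1 (25.0%). This comparison was chosen after the EGFR values had been seen and is a description of these libraries.

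**Figure D3:**
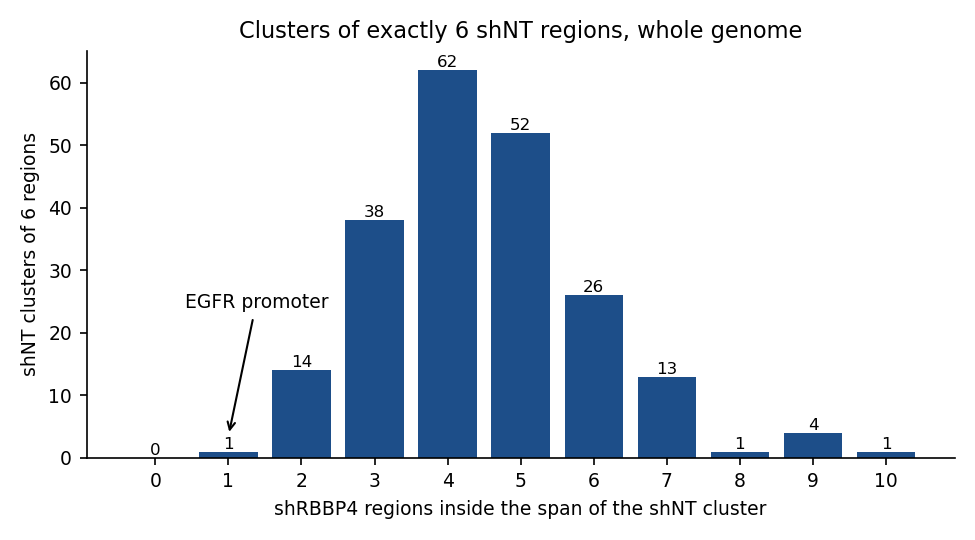
Number of shNT clusters of exactly 6 regions (y axis) by how many shRBBP4 regions lie within their span (x axis), over the whole genome, with the EGFR promoter marked. The EGFR promoter is the single cluster with 1 shRBBP4 region, and most of the 212 clusters hold 3 to 6.

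A stronger group of regions lay inside EGFR and was found in both libraries, at a distance that known gene models of EGFR place in its long first intron. It had 4 regions in shRBBP4, from 55132402 to 55134384, and 4 in shNT, from 55132171 to 55134575, between 45.4 and 47.9 kb after the start. They covered 1271 bp in shRBBP4 and 1236 bp in shNT, and 735 bp were covered in both. Every one of these 8 regions overlapped a region of the other library. The strongest shRBBP4 region, from 55133068 to 55133410, stood at percentile 85.9, and the strongest shNT region, from 55133922 to 55134575 and 654 bp wide, stood at percentile 93.9. The other shRBBP4 regions stood at percentiles 57.1, 63.9 and 74.3, and the other shNT regions at 1.18, 51.2 and 84.1. Within EGFR, every intronic region but the shNT one at percentile 1.18 ranked above every promoter region of its library. The strongest region of each lay in a different part of the group, and no pair of regions in it overlapped by 50% of both.

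MET, the receptor for hepatocyte growth factor, had a similar promoter pattern in both libraries. The promoter zone held 4 regions in each, covering 981 bp in shRBBP4 and 949 bp in shNT, with 628 bp in both. The cluster ran from 116312512 to 116314240 in shRBBP4 and from 116312612 to 116313908 in shNT. The strongest regions of the libraries overlapped, lying between 544 and 714 bp after the start at percentile 81.5 in shRBBP4, and between 558 and 707 bp after it at percentile 77.2 in shNT. The widest region was the one nearest the start, from 116312512 to 116312929 in shRBBP4 and from 116312612 to 116312946 in shNT, at percentile 51.8 for shRBBP4 and percentile 58.2 for shNT.

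The far ends of the MET promoter cluster differed in rank. The third shRBBP4 region, from 116313597 to 116313777, stood at percentile 73.0, and the shNT region that overlapped it, from 116313618 to 116313908, stood at 15.4. The fourth shRBBP4 region, from 116314030 to 116314240, stood at percentile 24.3 and overlapped no shNT region, the nearest being 121 bp away. One shNT region, from 116313378 to 116313550 at percentile 14.7, lay 46 bp from the nearest shRBBP4 region. Ranks from lists of different length do not measure a change.

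Inside MET, regions were called in shRBBP4 alone. A region of 547 bp from 116346981 to 116347527, between 34.5 and 35.1 kb after the start, stood at percentile 83.2 of the shRBBP4 list, the highest of any MET region. A second one of 116 bp followed, from 116347665 to 116347780, at percentile 8.79. The gene body zone of MET held no shNT region, and the nearest shNT region was 33.1 kb from the stronger of the pair. Of all shRBBP4 regions at or over percentile 70, 8.76% had no shNT region within 1 kb, and of all shRBBP4 clusters of 2 or more regions 18.2% had none.

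FGFR1, a fibroblast growth factor receptor, carried H3K9ac a little inside the gene in both libraries. Its promoter zone held 5 regions in shRBBP4 and 4 in shNT, all on chromosome 8 and all after the start, and its gene body zone held none in either. They covered 1148 bp in shRBBP4 and 1477 bp in shNT, with 822 bp in both. The cluster ran from 38322478 to 38324971 in shRBBP4, 1381 to 3874 bp after the start, and from 38323394 to 38325186 in shNT, 1166 to 2958 bp after it. The gene runs on the minus strand, so that the shNT cluster reached nearer to the start and the shRBBP4 cluster farther into the gene. In lists of equal length FGFR1 had 2 regions in shRBBP4 and 4 in shNT, so the direction of its count depended on weak regions too.

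The FGFR1 regions were split differently in the libraries. The strongest shRBBP4 region, from 38323370 to 38323590, stood at percentile 80.3, and the other shRBBP4 regions stood at percentiles 4.40 to 47.6. The strongest shNT region, from 38323394 to 38323931, stood at 59.5, and the other shNT regions at 37.7 to 51.2. The widest shNT region, from 38324045 to 38324737, spanned 693 bp and overlapped 2 shRBBP4 regions, the widest of which had 349 bp and ran from 38324097 to 38324445. The shRBBP4 region farthest into the gene, from 38322478 to 38322631, lay 762 bp from the nearest shNT region. The shNT region nearest the start, from 38325064 to 38325186, lay 92 bp from the nearest shRBBP4 region.

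PDGFRA, the receptor that marks oligodendrocyte precursors and the proneural type of glioblastoma, had 1 region in shRBBP4 and 0 in shNT. The shRBBP4 region ran on chromosome 4 from 55093951 to 55094085, between 1313 and 1179 bp before the start. It was 135 bp wide and stood at percentile 71.8 of its list. The nearest shNT region was 163 kb away. A single called region in one list of unknown depth gives no measure of a difference. Of 10784 tiles of 70 kb that held a region of either list, 13.8% held exactly 1 region, in shRBBP4. After the window, the next region was 1166 kb from the start in shRBBP4 and 1167 kb in shNT. The gene thus stood in a long stretch without called H3K9ac in shNT. In shRBBP4 the region before the start lay in that stretch, and the next one along the gene's direction came 1166 kb after the start.

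**Figure D4:**
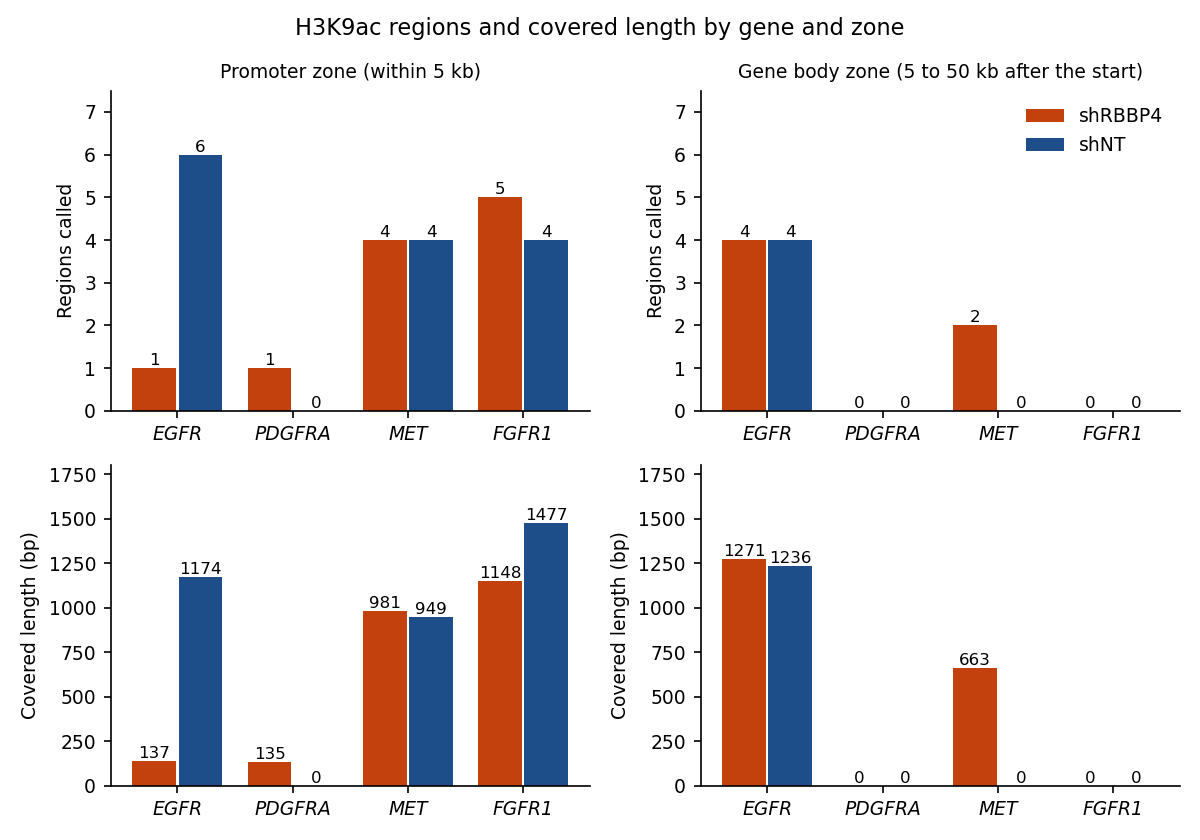
Number of H3K9ac regions (top, count) and covered length (bottom, bp) of each gene in the promoter zone (left) and the gene body zone (right), with shRBBP4 to the left of shNT. The EGFR promoter zone has 137 bp in shRBBP4 and 1174 bp in shNT, and the gene body zone of MET has 663 bp in shRBBP4 and 0 in shNT.

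Counts in the full lists were lower in shRBBP4 at EGFR and higher at MET, FGFR1 and PDGFRA, none of them with a replicate check. In lists of equal length MET had 4 regions in each library, FGFR1 had fewer in shRBBP4, and only PDGFRA had more. The promoter zones together held 11 regions in shRBBP4 and 14 in shNT, with a count ratio of 0.786 (0.323 to 1.86). The gene body zones held 6 regions in shRBBP4 and 4 in shNT, with a count ratio of 1.5 (0.356 to 7.23). By covered length the promoter zones had 2401 bp in shRBBP4 and 3600 bp in shNT, and 1037 of the 2013 bases covered in shNT alone lay at the EGFR promoter. The order of the promoter zones by covered length was FGFR1, MET, EGFR and PDGFRA in shRBBP4, with EGFR and PDGFRA 2 bp apart, and FGFR1, EGFR, MET and PDGFRA in shNT. By the strongest region, MET and FGFR1 led in both lists, at percentiles 81.5 and 80.3 in shRBBP4 and 77.2 and 59.5 in shNT. Within 2.5 kb of the start FGFR1 stood at 32.0 in shRBBP4, below PDGFRA at 71.8. Ranked by width, EGFR at 76.9 stood above MET at 74.4 in shNT.

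The windows were also read against tiles of 70 kb, the same length, laid along all chromosomes. The EGFR window had 5 regions in shRBBP4 and 10 in shNT. Fewer regions in shRBBP4 were seen in 19.0% of the tiles and in 33.3% of the 559 tiles of chromosome 7. Among the 53 tiles with exactly 10 shNT regions, as in the EGFR window, 2 had at most 5 in shRBBP4 (3.77%), and the median of those 53 was 10 in shRBBP4. These 53 tiles were singled out after the EGFR values had been seen. MET with 6 regions in shRBBP4 and 4 in shNT, FGFR1 with 5 in shRBBP4 and 4 in shNT, and PDGFRA with 1 in shRBBP4 and 0 in shNT were on the side of the 63.3% of tiles with more regions in shRBBP4. Tiles were not centred on gene starts, so they are a background of length and not of gene content. The EGFR ratio of 0.50 had a counting interval of 0.134 to 1.61, which holds both the whole-list ratio of 1.46 and that of chromosome 7.

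**Figure D5:**
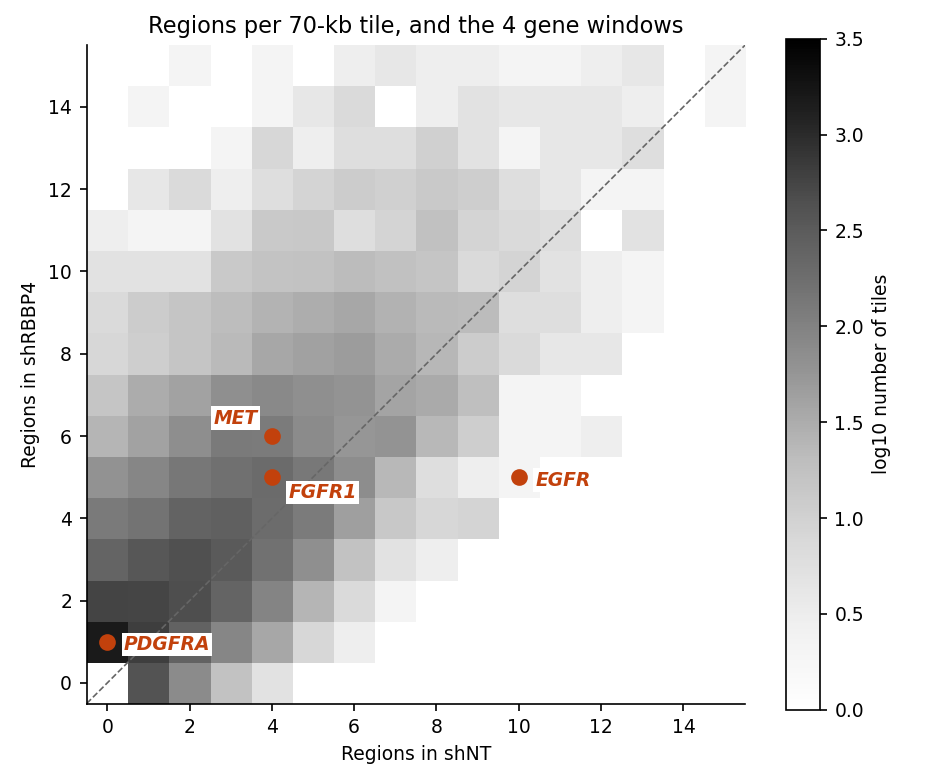
Regions in shRBBP4 (y axis, count) against regions in shNT (x axis, count) in tiles of 70 kb, with grey for the number of tiles on a log10 scale, the dashed line for equal counts and orange points for the 4 gene windows. EGFR, with 5 in shRBBP4 and 10 in shNT, lies below the line, and MET, FGFR1 and PDGFRA lie above it. Of the 10784 tiles, 10667 have at most 15 regions in each library and are drawn.

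No member lay across a window edge. The member nearest an edge was the intronic group of EGFR, 47.7 kb after the start in shRBBP4 and 47.9 kb in shNT. The next regions outside were 55.2 kb after the EGFR start in both libraries, at percentiles 93.9 in shRBBP4 and 89.8 in shNT. At FGFR1 the next ones lay 63.6 kb after the start in shRBBP4 and 61.7 kb in shNT, and at MET 103.8 kb in shRBBP4 and 190.2 kb in shNT. Before the start, the nearest outside region of any of the 4 genes was 59.0 kb away in shRBBP4 and 59.5 kb in shNT, both at FGFR1.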

How the data were processed

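The 2 lists of called H3K9ac regions came 1 from the shRBBP4 library and 1 from the shNT library. Each was called on its own library, and per the file headers the track is named for macs2 and PE. Per the submitters' processing notes, the software included SICER, Picard, BWA and bcl2fastq 2.15.0, and the build was hg19 (GRCh37); no step is assigned to a tool there. The sources used here do not give the caller's threshold, its version or whether the input was used. Each deposited region carries a score of unstated scale, the authors' own value, with a lowest value of 2.00 in shRBBP4 and 2.09 in shNT. It was used only to rank regions within a list. A gap in depth or threshold between the libraries would change region numbers, and reads per library are unknown.

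Starts were counted from 1 on hg19. Regions overlapping a window were assigned to zones by their centre. With no hg19 annotation at hand, exons were not placed, and the planned promoters of ligands, other receptors and adaptors were not analysed here. Ratios of counts have exact conditional intervals and shares exact Clopper-Pearson intervals, at 95%. Tiles count regions by their centre. Named regions are the strongest and the widest of each promoter zone, the strongest of the other zones, those nearest the start, and those above percentile 50 with no counterpart within 1 kb. The other positions were added after their values were seen. The members and the rules were chosen with earlier results of these data known. The functions were tested on simulated data. Software was Python 3.11.15 with scipy 1.17.1, numpy 2.4.6, pandas 2.3.3 and, for plots, matplotlib 3.10.9.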

Additional observations from a re-analysis of the deposited data

How the results depend on the processing

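No paired analysis was possible because both shRNAs are represented by a single H3K9ac library. Across the 4 windows the ratio of shRBBP4 to shNT regions was 0.944 as reported, 0.611 in lists of equal length, 1.43 in the higher-scoring 50% and 1.5 when regions within 1 kb were joined, all inside the reported interval but on both sides of 1. The covered length ratio moved to 1.41 in the higher-scoring 50%, and that of the promoter zones to 0.356 in lists of equal length, for which weak shRBBP4 regions are left out. The shared share was 23.5% in shRBBP4 and 22.2% in shNT with a reciprocal overlap of at least 50%, a stricter rule by construction. In shNT it was 94.4% within 1 kb, 85.7% in the higher-scoring 50% and 44.4% in lists of equal length. For the 1 kb rule, 6.24% of all shNT regions had no counterpart. Shares over all regions were not computed for the reciprocal rule, the higher-scoring 50% or lists of equal length. Those values therefore show nothing particular to the 4 genes.

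The EGFR promoter depended on weak regions. In lists of equal length it had 0 shRBBP4 and 6 shNT regions, in the higher-scoring 50% it had none in either library, so no ratio, and joined it was 1 cluster in each. Ranked by width, the top promoter percentiles were 22.4 in shRBBP4 and 76.9 in shNT for EGFR, 21.3 in shRBBP4 for PDGFRA, 80.2 in shRBBP4 and 74.4 in shNT for MET, and 74.6 in shRBBP4 and 93.3 in shNT for FGFR1. Within 2.5 kb of the start the FGFR1 score percentiles were 32.0 in shRBBP4 and 51.2 in shNT, since stronger regions fell outside. At FGFR1 the count ratio of 1.25 was 0.50 in lists of equal length and in the higher-scoring 50%. Of 50 alternative values, 34 stayed within the interval or limit set for them and 16 moved. For promoter ranks the limit was an identical value, so ranks by width, a different measure, could hardly stay. The intervals for counts were wide, so large shifts in a ratio could stay within them. The tally is therefore no measure of how stable the results were. Unknown depth limits every comparison of region numbers.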

Other observations

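Beyond the windows, the stretch of 100 kb after the EGFR window held 12 regions in shRBBP4 and 11 in shNT, the strongest at percentiles 93.9 in shRBBP4 and 94.7 in shNT. The stretch before it held 0 in either library. The 100 kb after the FGFR1 window held 14 regions in shRBBP4 and 10 in shNT. Around MET, the 100 kb before the window held 3 regions in shRBBP4, the strongest at percentile 71.8, and 0 in shNT, and the 100 kb after it held 1 in shRBBP4 and 0 in shNT. PDGFRA had 0 regions in either library over the 100 kb on both sides. In the RefSeq gene order the nearest protein-coding genes are SEC61G and LANCL2 for EGFR, CAV1 and CAPZA2 for MET, GSX2 and KIT for PDGFRA, and TACC1 and LETM2 for FGFR1. Regions outside the windows were not assigned to any of these genes.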
